A study of Mus musculus with 16 samples.

Results

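The response of macrophages to tumor medium in the presence of the JAK inhibitor ruxolitinib was described across all genes. It came from the comparison of macrophages given tumor cell conditioned media (CM) and ruxolitinib with macrophages given ruxolitinib in plain DMEM. Its samples were chosen by their labels, and they are the 3 samples of CM + Rux and the 3 of DMEM + Rux, 6 of the 16 samples of the series. The cells were bone marrow-derived macrophages (BMDMs), which are grown in culture from the bone marrow of mice, here WT Balb/c mice 8 weeks old. CM came from serum starved 4T1 cells, a line of mouse mammary tumor cells of Balb/c origin, and ruxolitinib inhibits the kinases JAK1 and JAK2. CM + Rux cells received 0.5 μM ruxolitinib before and with the CM, and their labels carry a time of 4 h. DMEM + Rux cells received ruxolitinib without CM, at a dose and for a time that their labels do not state. For comparison, 3 samples of CM alone and 2 of DMEM alone, likewise from WT Balb/c mice 8 weeks old, gave the response without the inhibitor. CM from a single tumor line was used, and nothing in the labels says that samples of a group came from separate mice or cultures, so p-values measure the spread between these samples, which may be technical.

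Interferons and many, though not all, cytokines signal through receptors that carry JAK kinases, which activate STAT transcription factors. Toll-like receptors and the receptors for interleukin-1 and tumor necrosis factor signal instead through IκB kinases, which free NF-κB to enter the nucleus, and through MAP kinases, which act on AP-1. Both arms meet in a macrophage, since NF-κB induces cytokines that act back on the same cell through JAKs, and a JAK inhibitor is therefore used to separate the genes that a stimulus reaches without this loop.

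RNA was measured by stranded mRNA sequencing, and between 18449388 and 46215853 fragments were counted on genes in each of the 6 samples. Levels are in CPM, the counts of a gene relative to the scaled total of its sample, each sample is given in the order of its replicate number, and errors are SD with n = 3 unless stated. At these totals, 3 counts in the shallowest sample correspond to 0.139 CPM in DMEM + Rux and 0.153 CPM in CM + Rux, and a fold against a group with no more than 3 counts in any sample is given as a lower bound on that basis, which covers counting error only. A gene is called higher or lower when edgeR's quasi-likelihood test gave a Benjamini-Hochberg adjusted p under 0.05 over all 12372 genes tested and the log2 fold change was beyond 0.5. A value in brackets after a gene is its log2 fold change, CM + Rux over DMEM + Rux, unless another quantity is named. The 8 macrophage markers examined, which include Adgre1, Csf1r and Lyz2, summed to 40148 to 44157 CPM in DMEM + Rux and to 46368 to 56257 CPM in CM + Rux. Defining markers of other cells were low: 12 epithelial keratins, claudins and adhesion genes summed to at most 0.231 CPM in DMEM + Rux and 1.19 CPM in CM + Rux, with Krt5, Krt14 and Cldn3 at 0 in all 6 samples, and none of the 12 passed the filter for testing. Markers of neutrophils, T and NK cells, B cells and fibroblasts summed to at most 19.7 CPM in any of the 6 samples. Those of dendritic cells summed to 1.11 to 2.30 CPM in DMEM + Rux and 7.28 to 11.1 CPM in CM + Rux, led by the chemokine receptor gene Ccr7, and the part of other cells in the results was not tested. In bulk RNA of this kind, fewer cells of a type and less RNA per cell cannot be told apart.

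Tumor medium changed close to an even number of genes in each direction in the presence of ruxolitinib. Of 12372 genes, 2761 (22.3%) were higher and 3096 (25.0%) were lower in CM + Rux than in DMEM + Rux, and 6515 were not called. The counts of every gene list below are to be read beside these shares. The samples of both groups did not overlap for 2729 of the higher and 3035 of the lower genes, against 35.2% of all genes tested that lay wholly higher and 34.8% wholly lower. The rises reached further than the falls: 359 genes rose and 135 fell by at least 8-fold, and 131 rose and 23 fell by at least 32-fold. The median log2 fold change was 1.01 among the higher and -1.04 among the lower genes, with a median standard error of 0.13 over all genes. The balance of the directions rests on the scaling, since relative log expression scaling shifted every log2 fold change up by 0.30 against scaling by total counts. With total counts, an alternative chosen after seeing the data, 1699 genes (13.7%) were higher and 4674 (37.8%) lower, and the share of called genes that were higher was 26.7% in place of 47.1%. No gene called in 1 direction was called in the other by that scaling.

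**Figure D1:**
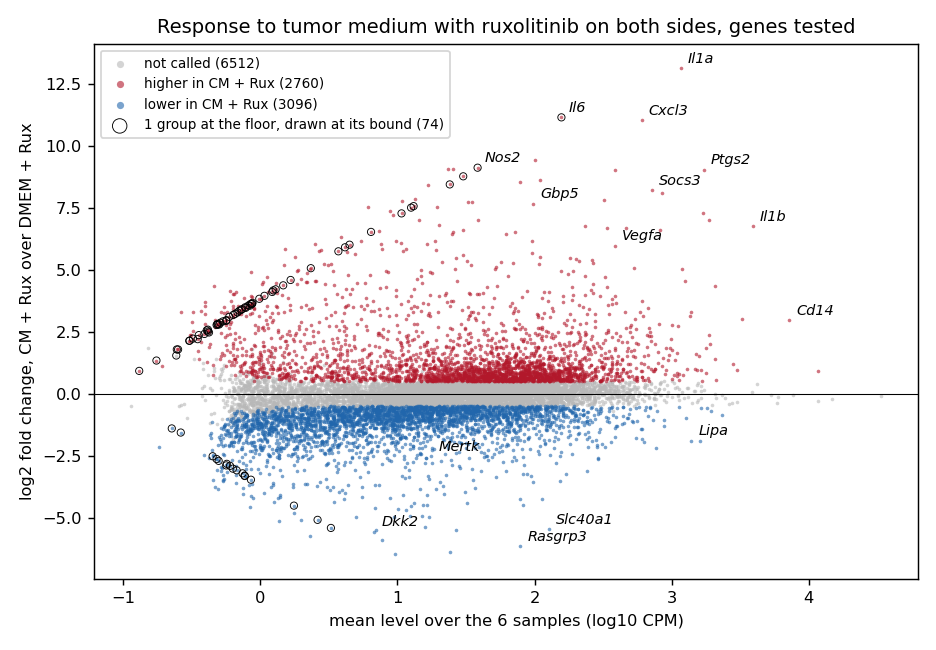
Each point is a gene, with its mean level over the CM + Rux and DMEM + Rux samples (log10 CPM) on the x axis and its log2 fold change, CM + Rux over DMEM + Rux, on the y axis. Of the genes drawn, 2760 higher, 3096 lower and 6512 not called are in separate colors, 74 genes with a group at the counting limit are drawn at their bound and 4 are not drawn, and the spread of the higher genes reaches further from 0 than that of the lower genes.

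The 12 steepest rises included those of inflammatory cytokines, chemokines and enzymes that were at or near 0 in ruxolitinib alone. All 12 genes were under 1 CPM in every DMEM + Rux sample. They passed the filter for testing, above 1 CPM in at least 2 samples, only through other groups. Their rise and the gap between the groups are therefore partly set in advance. Il6 (ENSMUSG00000025746, chr5:30013114-30019981, GRCm38), the gene of the cytokine interleukin-6, had no counts in the 3 DMEM + Rux samples and 251, 439.6 and 252 CPM in the CM + Rux samples, which is at least 2268-fold higher (adjusted p = 5.5e-07, edgeR's quasi-likelihood test). Nos2, which makes nitric oxide from arginine, also had no counts in DMEM + Rux and reached 103, 35.7 and 92 CPM in CM + Rux, at least 555-fold higher (adjusted p = 1.4e-06). Both genes were counted in every treated sample and in no control, and CM + Rux replicate 2 was the highest of its group for Il6 and the lowest for Nos2. Il1a, an interleukin-1 that acts as an alarm signal, went from 0.139, 0.268 and 0.324 CPM to 1565, 2984 and 2424 CPM, and the log2 fold change was 13.13 ± 0.71 (SE, adjusted p = 3.0e-09). Cxcl3, a chemokine that draws neutrophils, went from 0.369, 0.759 and 0.486 CPM to 1128, 1504 and 985 CPM, and the log2 fold change was 11.02 ± 0.45 (adjusted p = 2.7e-10). In neither gene did the groups come near each other. The other genes of largest rise were Csf3, the growth factor of neutrophils (at least 182-fold, from 0 to 25.2 ± 21.7 CPM), Has1, which makes hyaluronan (at least 436-fold), Shisa3 (at least 189.6-fold), Il23a (at least 155-fold) and Il12b (at least 348-fold), which encode the subunits of interleukin-23, the oxidized lipid receptor gene Olr1 (log2 fold change 9.43), the NAD-consuming enzyme gene Cd38 (9.08) and Cxcl5 (9.05). Csf3 and Il23a had their highest value in CM + Rux replicate 2, at 10.9, 50.2 and 14.5 CPM and 8.71, 45.5 and 10.1 CPM over the 3 samples, so their spread within the group was wide against that of Has1 (60.8, 63.9 and 56.6 CPM). With that sample left out, the lower bound for Csf3 dropped to 91.7-fold, and that of Il23a became 67.8-fold. The log2 fold change of Olr1 was 10.10 with DMEM + Rux replicate 3 left out.

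**Figure D2:**
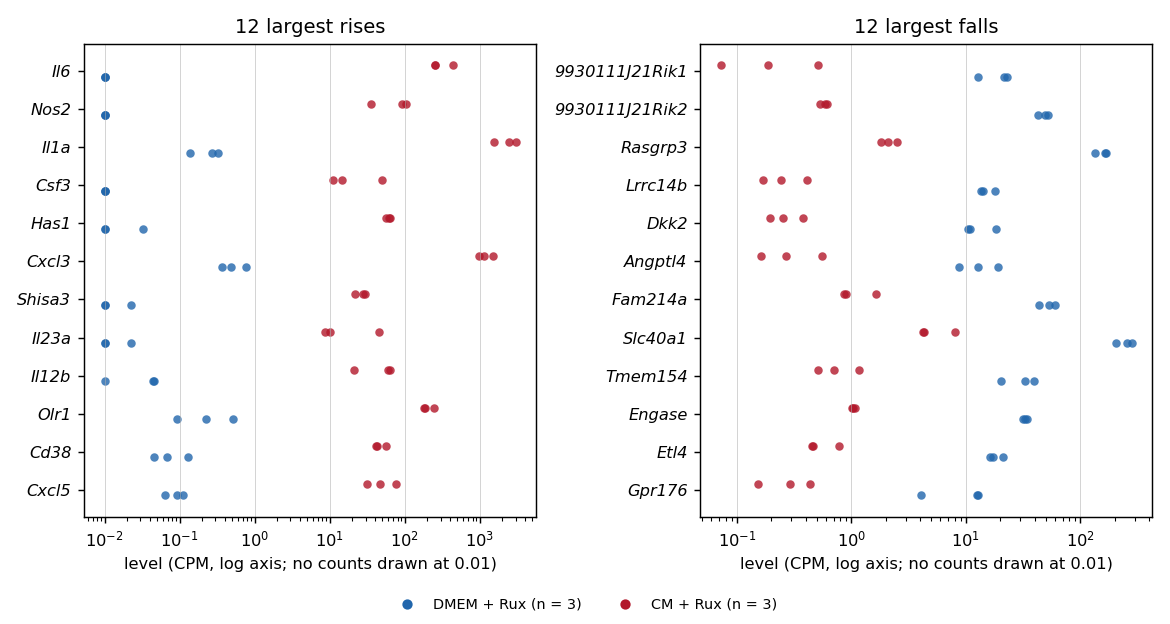
Points are the level of each gene (CPM, log axis) in each of the 3 DMEM + Rux samples (blue) and 3 CM + Rux samples (red), for the 12 genes of largest rise on the left and the 12 of largest fall on the right, with samples without counts drawn at the left edge. The colors are apart for every gene drawn, and Il6, Nos2 and Csf3 have all 3 control samples at that edge.

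Per kilobase of gene model, the rising genes that stood highest in CM + Rux included a surface receptor, cytokines and an iron store. Cd14, the co-receptor for lipopolysaccharide, rose from 943 to 7349 CPM per kb, and Fth1, the ferritin heavy chain, from 2334 to 4399 CPM per kb. Il1b, the inflammasome-processed interleukin-1, rose from 37.6 to 4035 CPM per kb. Acod1, which makes itaconate from a Krebs cycle intermediate, rose from 11.1 to 1421 CPM per kb and Il1a from 0.123 to 1177 CPM per kb. Tnfrsf1b, a receptor of tumor necrosis factor, rose from 189 to 1524 CPM per kb.

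The 12 genes of steepest fall had varied roles, and they averaged between 9.74 CPM (Gpr176) and 247 CPM (Slc40a1) in DMEM + Rux. Rasgrp3 (ENSMUSG00000071042, chr17:75435896-75529054, GRCm38), an activator of Ras and Rap GTPases, stood at 135, 167 and 163 CPM in DMEM + Rux and 2.08, 2.49 and 1.83 CPM in CM + Rux, and the log2 fold change was -6.15 ± 0.23 (adjusted p = 1.5e-10). Slc40a1, which encodes ferroportin, the iron exporter of cells, stood at 258, 203 and 282 CPM in DMEM + Rux and 8.04, 4.21 and 4.27 CPM in CM + Rux, and the log2 fold change was -5.47 ± 0.33 (adjusted p = 9.3e-09). For both genes every treated sample lay far below every control. Angptl4, a secreted inhibitor of lipoprotein lipase, fell from 12.8, 8.71 and 19.1 CPM to 0.162, 0.266 and 0.560 CPM (log2 fold change -5.51), and Dkk2, a secreted Wnt antagonist, from 10.9, 10.5 and 18.4 CPM to 0.378, 0.194 and 0.254 CPM (-5.57). The log2 fold changes were -5.90 for Lrrc14b, -5.48 for Fam214a, -5.37 for Tmem154, -4.97 for Engase, -4.96 for Etl4 and -4.96 for Gpr176, a G protein-coupled receptor gene. 9930111J21Rik1 (-6.48) and 9930111J21Rik2 (-6.38) had the lowest values, but they are near-identical neighbours between which the authors' counting may have split or dropped reads, and their levels are uncertain. Without CM + Rux replicate 3 the first was at -7.18.

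Cytokine and chemokine genes moved in 1 direction. Of 24 cytokine genes listed, 21 passed the filter and 21 rose and 0 fell, beside 22.3% higher among all genes. Their median log2 fold change was 5.25, or 4.35 with genes at the counting limit set to their bound, against -0.00 over all genes. A gene under 1 CPM in all DMEM + Rux samples passes the filter only through other groups, so its rise is partly set in advance. This holds for the 6 cytokine genes at the counting limit in DMEM + Rux, and for others such as Il10 and the chemokine gene Ccl17. It holds as well for Ccl22, Cish, Tnfrsf9, Adora2a and Adm, described below. Il12a, Il19 and Ifnb1 did not pass the filter. Il1b rose from 71.7 ± 32.6 CPM to 7695 ± 261 CPM, and its soluble antagonist Il1rn from 71.1 ± 11.5 CPM to 2325 ± 677 CPM. Il10, an anti-inflammatory cytokine, rose from 0.298 ± 0.179 CPM to 69.3 ± 44.4 CPM (log2 fold change 7.72, or 7.09 without CM + Rux replicate 2). All 6 CXC chemokines for neutrophils rose, with a median of 7.35, among them Cxcl1 from 6.21 ± 2.02 CPM to 1688 ± 275 CPM and Cxcl2 from 16.5 ± 2.39 CPM to 1626 ± 235 CPM. Of 10 CC chemokines tested 9 rose and 0 fell, with a median of 4.66 (4.38 with bounds). Ccl5, which attracts T cells, rose from 4.13 ± 0.826 CPM to 462 ± 76.7 CPM, Ccl2, which attracts monocytes, from 1.33 ± 0.517 CPM to 123 ± 90.4 CPM (log2 fold change 6.45, or 5.72 without CM + Rux replicate 2), and Ccl17, a ligand of CCR4, was at least 60-fold higher.

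The 4 genes that the study followed from these samples, Csf2, Has1, Ccl22 and Tnf, all rose, and since they were picked on these libraries this is no independent evidence of their direction. Csf2, the granulocyte-macrophage growth factor, had 0, 0 and 0.0648 CPM in DMEM + Rux and 0.917, 0.751 and 1.22 CPM in CM + Rux, at least 6.95-fold higher (adjusted p = 7.4e-05). Ccl22, another ligand of CCR4, had 0.416, 0.491 and 0.745 CPM and 184, 204 and 268 CPM, and the log2 fold change was 8.61 ± 0.44 (adjusted p = 1.7e-09). Tnf, tumor necrosis factor, had 47.6, 55.8 and 58.4 CPM and 395, 577 and 517 CPM, and the log2 fold change was 3.20 ± 0.37 (adjusted p = 3.6e-06). No CM + Rux sample of these genes reached down to a control, though Csf2 stayed near 1 CPM.

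The windows around the start of Il6 and Cxcl1 are shown because both genes rose steeply in ruxolitinib and their promoters are textbook NF-κB targets. They run from 250 bases before to 50 bases after the start (RefSeq, GRCm38.p6), and capitals mark matches to the κB consensus of NF-κB. The genes whose promoters are printed were chosen after their values were seen.
Il6 (chr5:30012864-30013163, + strand): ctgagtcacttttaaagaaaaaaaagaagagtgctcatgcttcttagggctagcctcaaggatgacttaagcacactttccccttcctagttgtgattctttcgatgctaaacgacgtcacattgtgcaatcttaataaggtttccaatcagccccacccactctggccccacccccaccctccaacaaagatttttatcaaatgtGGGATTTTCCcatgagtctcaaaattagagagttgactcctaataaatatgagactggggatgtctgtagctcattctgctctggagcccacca
Cxcl1 (chr5:90890995-90891294, + strand): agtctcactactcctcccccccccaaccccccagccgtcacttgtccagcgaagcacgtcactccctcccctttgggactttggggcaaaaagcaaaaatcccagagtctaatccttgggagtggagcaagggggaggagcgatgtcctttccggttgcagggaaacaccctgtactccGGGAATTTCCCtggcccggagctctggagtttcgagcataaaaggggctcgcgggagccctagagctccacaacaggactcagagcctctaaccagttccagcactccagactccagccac
In Il6 the match begins 44 bases before the start, and in Cxcl1 the capitals hold 2 overlapping matches that begin 71 and 70 bases before it. The Il6 window also holds 1 AP-1 site (TGAGTCA, either strand), near its distal end and left in lower case. On either strand, 8.46% of the 32851 promoter windows held a κB match and 5.20% an AP-1 site. No κB match was found in the windows of Csf2, Has1, Ccl22, Tnf and Il1a, which says only that these letters are not in this window. A match is a description of the sequence and was not tested as a binding site.

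Most genes of the NF-κB system and of its targets rose, and none of those tested fell. Of 26 subunits, inhibitors and kinases 20 rose (median 1.26). Nfkbia, which encodes the inhibitor IκBα and is itself an NF-κB target, went from 109, 116 and 132 CPM in DMEM + Rux to 923, 1079 and 866 CPM in CM + Rux, and the log2 fold change was 3.0 ± 0.18 (adjusted p = 7.0e-09), with all treated samples above all controls. Tnfaip3, the ubiquitin-editing brake A20, had a log2 fold change of 3.61, Zc3h12a, an endonuclease that degrades cytokine mRNA, of 3.48, and Bcl3, a nuclear IκB protein, of 3.10. Among the subunits themselves, the log2 fold changes were 2.81 for Nfkb1, 1.99 for Rel and 0.71 for Rela. Of 29 target genes of survival, adhesion and inflammation 27 rose, with a median of 3.52. Ptgs2, the inducible cyclooxygenase, rose from 6.54 ± 0.411 CPM to 3422 ± 898 CPM (log2 fold change 9.03), Saa3, an acute-phase protein, from 6.40 ± 3.34 CPM to 672 ± 228 CPM (6.67), and Tnfrsf9, the receptor CD137, from 0.227 ± 0.0492 CPM to 28.6 ± 19.1 CPM (7.03, or 6.31 without CM + Rux replicate 2).

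**Figure D3:**
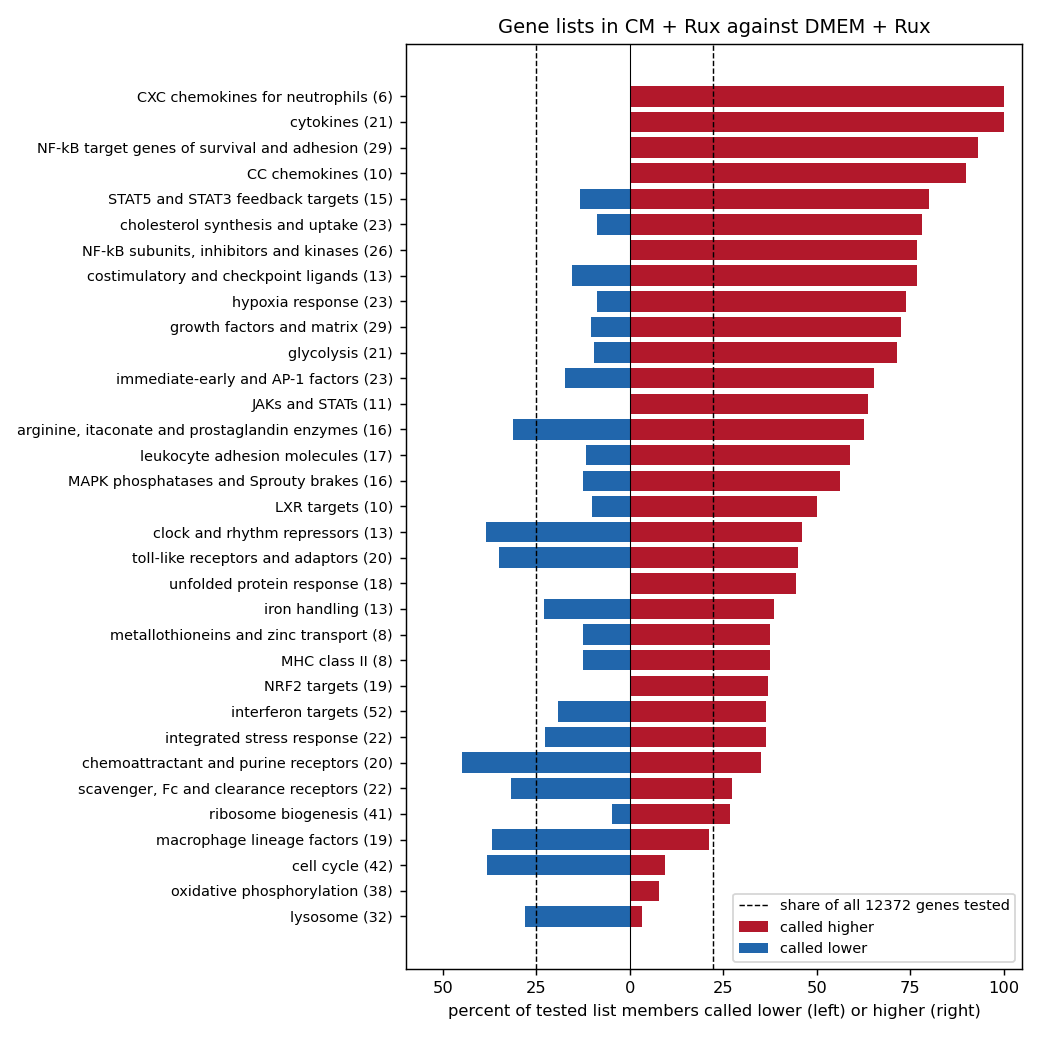
Bars give, for each gene list with its number of tested genes in brackets, the percent called lower (left, blue) and higher (right, red) in CM + Rux against DMEM + Rux, and dashed lines give the shares of all genes tested, 25.0% lower and 22.3% higher. Cytokine, chemokine and NF-κB lists have bars to the right only, while the lysosome and cell cycle lists have longer bars to the left than to the right. The left bar of the lysosome list ends near the dashed line.

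Most genes listed as targets of STAT5 and STAT3 rose in CM although ruxolitinib was on both sides. Of 15 such genes 12 rose and 2 fell (median 3.23). Socs3, an inhibitor of receptors of the gp130 family, went from 4.02, 4.60 and 5.96 CPM in DMEM + Rux to 1168, 1949.8 and 1188 CPM in CM + Rux, and the log2 fold change was 8.20 ± 0.51 (adjusted p = 1.1e-08). Cish, a STAT5-induced inhibitor of cytokine receptors, went from 0.323, 0.268 and 0.324 CPM to 57, 88 and 49.2 CPM, and the log2 fold change was 7.74 ± 0.39 (adjusted p = 1.6e-09). In both genes every CM + Rux sample lay far above every control, and the spread within CM + Rux was small beside that gap. The genes that fell were Ccnd1, which encodes cyclin D1 and went from 58.3 ± 1.31 CPM to 3.67 ± 1.14 CPM (-3.97), and Bcl6, a transcriptional repressor (-1.38). Among the JAK and STAT genes themselves, 7 of 11 rose and 0 fell with a median of 0.55, and with total counts 4 rose and 0 fell with a median of 0.25. Jak2, a target kinase of the inhibitor, rose from 48 ± 4.11 CPM to 686 ± 47 CPM (3.84), Stat3 from 117 ± 6.39 CPM to 534 ± 94.9 CPM (2.19) and Stat4 from 2.74 ± 0.541 CPM to 27.1 ± 6.97 CPM (3.34). The Cish window is shown for its STAT palindromes (TTCNNNGAA, the same on both strands), in capitals, which begin at the start and 11 bases after it.
Cish (chr9:107296409-107296708, + strand): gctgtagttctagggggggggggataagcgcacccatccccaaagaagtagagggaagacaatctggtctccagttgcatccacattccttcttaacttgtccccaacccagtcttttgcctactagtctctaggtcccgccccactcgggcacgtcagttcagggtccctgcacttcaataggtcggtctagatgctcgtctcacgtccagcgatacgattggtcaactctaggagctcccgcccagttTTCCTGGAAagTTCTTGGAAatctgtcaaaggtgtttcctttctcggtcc
A palindrome of this form was present in 8.30% of all promoter windows. STAT activity and binding were not measured in the RNA samples themselves. In separate immunoblots of BMDMs given CM of the same tumor line, the study reported that ruxolitinib inhibited the phosphorylation of STAT5. Those blots followed a shorter treatment than the one used for RNA. Whether STAT proteins were active or bound when the RNA was taken was not tested.

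Interferon targets moved in both directions in CM, and the share that fell was below that of all genes. Type I and type II interferons act through JAKs, and their targets were low in DMEM + Rux: 46 of the 52 tested were lower in DMEM + Rux than in DMEM, against 0.970% of all genes by the same test. From that level, 19 rose and 10 fell in CM + Rux, beside 22.3% higher and 25.0% lower among all genes. Their median was 0.34 (0.30 with bounds). With total counts 14 rose and 12 fell with a median of 0.03, beside 13.7% higher and 37.8% lower among all genes. Gbp5, a guanylate-binding protein of the inflammasome pathway, went from 0.785, 0.514 and 1.62 CPM to 193, 166 and 219.7 CPM, and the log2 fold change was 7.67 ± 0.44 (adjusted p = 5.6e-09). Further rises were those of Gbp3 (4.08), Oasl1, a regulator of the interferon response (3.76), Isg15, a ubiquitin-like modifier (3.18), and Rsad2, the antiviral protein viperin (2.44). CM + Rux replicate 2 was the highest sample for the last 3, with Oasl1 at 19.1, 102 and 14.7 CPM, and without it the log2 fold changes were 2.33 for Oasl1, 2.33 for Isg15 and 1.46 for Rsad2 and 15 of the 52 targets rose and 11 fell. Gbp5 was at 8.30 with DMEM + Rux replicate 3 left out. Ifit2, an antiviral RNA-binding protein, fell from 3.69, 4.76 and 6.54 CPM to 0.620, 1.36 and 0.763 CPM (-2.41), with no overlap between the groups. Ifi44l fell as well (-2.25), and Ifit3b was at least 2.96-fold lower, though its near-identical copy Ifit3 (-2.0) makes both uncertain.
The Gbp5 window is shown for its interferon-stimulated response element (GAAANNGAAA on either strand), in capitals, which begins 165 bases before the start and reads on the opposite strand.
Gbp5 (chr3:142496684-142496983, + strand): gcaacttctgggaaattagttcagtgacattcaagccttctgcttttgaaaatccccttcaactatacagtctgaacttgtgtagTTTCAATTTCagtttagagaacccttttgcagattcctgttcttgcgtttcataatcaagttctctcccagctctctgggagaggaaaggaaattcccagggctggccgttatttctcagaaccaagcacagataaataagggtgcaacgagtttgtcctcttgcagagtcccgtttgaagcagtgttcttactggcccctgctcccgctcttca
The same window held 1 match to the κB consensus and 2 STAT palindromes, left in lower case. The element was present in 3.44% of all promoter windows.

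**Figure D4:**
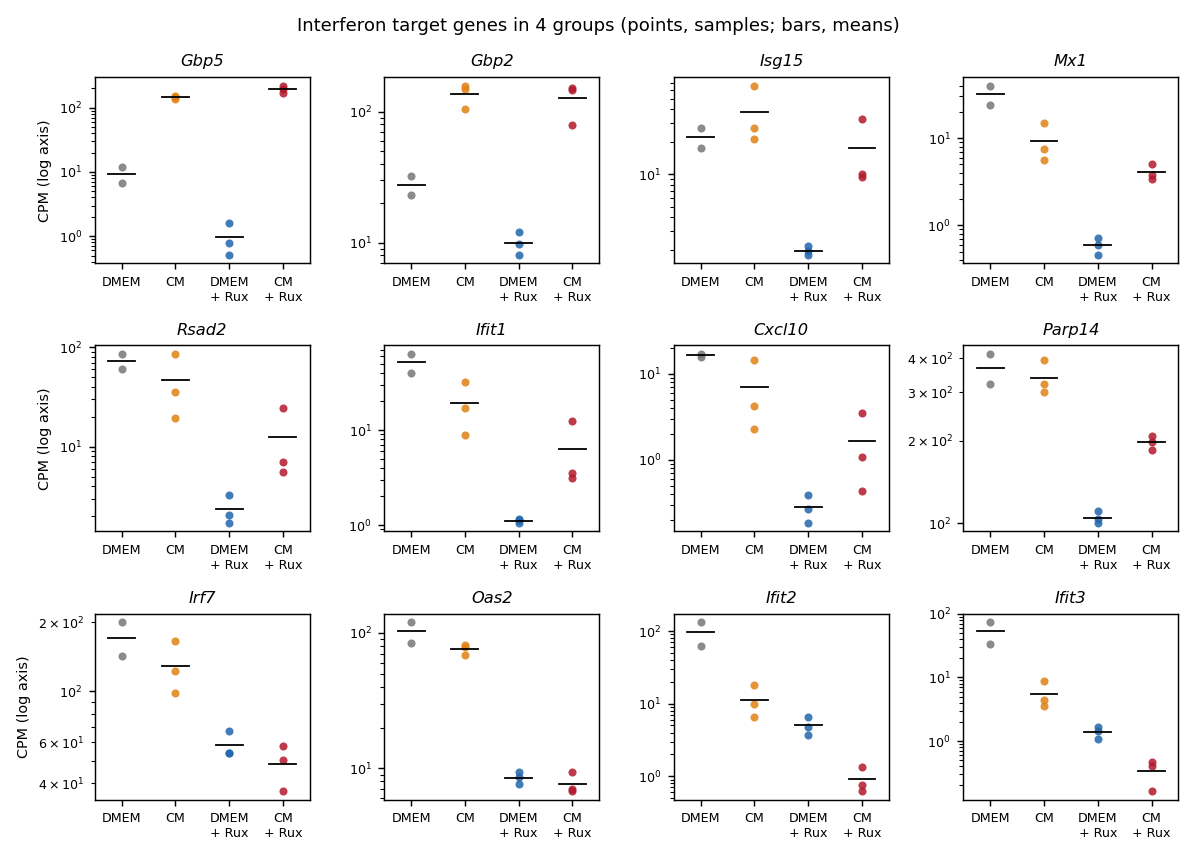
For 12 interferon target genes, points are the level (CPM, log axis) in each sample of DMEM (n = 2), CM, DMEM + Rux and CM + Rux (n = 3 each), and bars are group means. All 3 DMEM + Rux samples lie below both DMEM samples in each panel, and from there Gbp5, Gbp2, Isg15 and Mx1 stand higher in CM + Rux while Ifit2 and Ifit3 stand lower.

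Genes of sugar use and of the hypoxia response rose. Of 21 glycolysis genes 15 rose and 2 fell (median 1.44), and of 23 genes of the hypoxia response 17 rose and 2 fell (median 1.91). Slc2a1, the glucose transporter GLUT1, went from 60.7, 58.3 and 52.8 CPM to 694, 853 and 632 CPM, and the log2 fold change was 3.66 ± 0.23 (adjusted p = 1.2e-08). The lactate exporter gene Slc16a3 rose by 4.31, the regulator of phosphofructokinase Pfkfb3 by 3.94 and hexokinase 2 (Hk2) by 3.77 on the log2 scale, while the transporter gene Slc2a3 (-2.18) and the muscle-type phosphofructokinase Pfkm (-1.38) fell. Vegfa, the growth factor of blood vessels, went from 10.3, 6.43 and 19.7 CPM to 594, 1016 and 672 CPM, and the log2 fold change was 5.98 ± 0.47 (adjusted p = 1.0e-07). Ddit4, an inhibitor of mTORC1, rose by 5.03 and Adm, the vasodilator adrenomedullin, by 4.42 (5.06 without DMEM + Rux replicate 2), whereas the lipid droplet gene Plin2 fell (-2.20). Hif1a, the oxygen-regulated factor itself, had a log2 fold change of 3.15. The Slc2a1 window is shown for its hypoxia response core (ACGTG, either strand), in capitals, which begins 36 bases before the start and was present in 19.6% of all promoter windows.
Slc2a1 (chr4:119108495-119108794, + strand): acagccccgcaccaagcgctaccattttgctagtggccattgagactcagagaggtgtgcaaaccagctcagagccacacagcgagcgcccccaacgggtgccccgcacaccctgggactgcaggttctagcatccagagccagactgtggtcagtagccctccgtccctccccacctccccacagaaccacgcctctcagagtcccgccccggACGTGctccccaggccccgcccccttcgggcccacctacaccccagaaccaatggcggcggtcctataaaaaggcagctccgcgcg
Few nuclear-encoded genes of oxidative phosphorylation were called: 3 of 38 rose and 0 fell with a median of 0.17, and with total counts 0 rose and 7 fell with a median of -0.13.

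Most genes of cholesterol synthesis and uptake rose. Of 23 genes of that list 18 rose and 2 fell (median 1.06). The number that rose was 13 with total counts, 12 without CM + Rux replicate 2 and 15 without DMEM + Rux replicate 3. Idi1 (2.18, or 2.80 without DMEM + Rux replicate 2) and Mvd (1.98), both enzymes of the mevalonate pathway, rose. Dhcr7, which makes the last step to cholesterol, fell (-1.88). Of 10 targets of the sterol sensor LXR 5 rose and 1 fell. The cholesterol exporter gene Abca1 rose from 226 ± 21 CPM to 1151 ± 46.7 CPM (2.35), and its partner in export Abcg1 fell from 362 ± 78.2 CPM to 124 ± 18 CPM (-1.54). Scd2, a fatty acid desaturase, rose (2.38). Among 32 lysosome genes 1 rose and 9 fell (median -0.22), and the share that fell was near the 25.0% of all genes. With total counts 17 fell, beside 37.8% of all genes. The gene that rose was Ctsl, the protease cathepsin L (1.42). Lipa, the lysosomal acid lipase, fell from 2187 ± 226 CPM to 587 ± 91.5 CPM (-1.90), and Tfeb, a transcription factor of lysosome genes, fell too (-1.54).

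Enzymes that make mediators from arginine, itaconate precursors and arachidonic acid moved in both directions. Of 16 such genes 10 rose and 5 fell. With Nos2, Acod1 and Ptgs2 rose Arg1, the liver-type arginase (at least 53.6-fold higher at 2.24, 15.3 and 4.73 CPM, and at least 25.2-fold without CM + Rux replicate 2), Arg2 (3.47), the arginine transporter gene Slc7a2 (6.68) and Ptges, which makes prostaglandin E2 (7.83). Alox5, the lipoxygenase of leukotriene synthesis (-2.14), Hpgds, which makes prostaglandin D2 (-1.74), and the constitutive cyclooxygenase Ptgs1 (-1.69) fell. In iron handling, 5 of 13 genes rose and 3 fell, with a median of 0.41 (0.10 with bounds), and 5 rose and 5 fell with total counts. The share that fell, without total counts, was near the 25.0% of all genes. Beside the fall of Slc40a1, the ferrireductase gene Steap3 (-2.61) and the transferrin receptor gene Tfrc (-0.80) fell, and Lcn2, which binds bacterial siderophores (5.73, or 6.48 without DMEM + Rux replicate 3), Cp, the ferroxidase ceruloplasmin (1.08), and the iron importer gene Slc11a2 (1.07) rose.

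Receptor genes were called in both directions within each of 3 families, beside 22.3% higher and 25.0% lower among all genes. Among 20 genes of Toll-like receptors and their adaptors 9 rose and 7 fell with a median of 0.41, and with total counts 6 rose and 8 fell with a median of 0.11. The surface receptor gene Tlr2 (3.28), Cd14 (2.96) and Irak3, a brake on the pathway (2.42), rose, whereas the endosomal receptors of nucleic acids Tlr13 (-2.13), Tlr9 (-2.0) and Tlr7 (-1.57) fell. Of 22 scavenger, Fc and clearance receptors 6 rose and 7 fell, shares near those of all genes. Olr1 and Timd4, a receptor for phosphatidylserine (4.55), rose, while Mertk, a kinase receptor for the clearance of dying cells (-2.52), and its ligand Gas6 (-1.74) fell. Of 20 chemoattractant and purine receptors 7 rose and 9 fell, with a median of 0.08 that was -0.23 with total counts. Both A2 adenosine receptor genes rose, Adora2a from 0.606 ± 0.205 CPM to 77.4 ± 6.79 CPM (7.0) and Adora2b from 2.58 ± 0.373 CPM to 189.9 ± 43.4 CPM (6.18), and the purinergic receptor genes P2ry13 (-2.57) and P2ry12 (-2.45) fell, as did Gpr34, a receptor of lysophosphatidylserine (-4.36).

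Surface ligands for T cells rose, with 10 of 13 costimulatory and checkpoint genes higher and 2 lower (median 2.73). Cd274, which encodes the checkpoint ligand PD-L1 and is known as an interferon-γ target, went from 18.7, 25.5 and 35.6 CPM to 453, 604 and 413 CPM, and the log2 fold change was 4.20 ± 0.23 (adjusted p = 3.0e-09), and the groups did not overlap. Cd40 (5.68) and Havcr2, the receptor TIM-3 (3.91), rose, and Cd48 (-1.0) and Vsir (-0.56) fell. Among MHC class II genes 3 of 8 rose and 1 fell, and the median of 0.25 was -0.05 with total counts. Only 1 rose with total counts or without CM + Rux replicate 2. The gene that fell was Ciita, the transactivator of class II genes (-0.85), whose call was lost without CM + Rux replicate 1 (-0.76) or DMEM + Rux replicate 2 (-0.52), while H2-Ab1 rose (1.09). Of 17 adhesion genes 10 rose and 2 fell, including a rise of Vcam1 (6.10) and a fall of the integrin gene Itga6 (-2.16). Of 29 genes of growth factors and matrix 21 rose and 3 fell (median 1.72), with Thbs1, the matrix protein thrombospondin, at 21.7 ± 6.42 CPM and 3362 ± 1364 CPM (7.28), and a fall of Igf1 (-1.06).

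Transcription factors of the immediate-early and AP-1 group rose in 15 and fell in 4 of 23 genes, beside 22.3% higher and 25.0% lower among all genes. The orphan nuclear receptor gene Nr4a3 (6.81), Ier3 (5.41) and Maff (4.05) rose, and the serum-responsive genes Egr3 (-2.58, or -3.22 without CM + Rux replicate 2) and Egr1 (-1.62) fell. Of 16 genes that limit MAP kinase signaling 9 rose and 2 fell, with rises of the phosphatase genes Dusp14 (5.83, or 4.56 without CM + Rux replicate 2 and 9.52 without DMEM + Rux replicate 2, which alone of the controls held counts), Dusp2 (5.20) and Dusp5 (5.02) and falls of Dusp3 (-1.61) and Dusp6 (-1.24), of which Dusp6 is a phosphatase of ERK. Of 19 lineage factors 4 rose and 7 fell (median -0.06), and the share that rose was near that of all genes. With total counts 3 rose and 9 fell (median -0.36). Cebpb, a factor of inflammatory macrophages (3.16), and Id2 (2.48) rose, and Mef2c fell from 148 ± 15.6 CPM to 20.1 ± 0.291 CPM (-2.88) together with Klf2 (-1.93, or -2.56 without CM + Rux replicate 2). Clock genes moved both ways, 6 higher and 5 lower of 13, with the repressor gene Bhlhe40 up (2.77) and the output factor Dbp down (-2.56).

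Cell cycle genes fell more often than they rose, in 16 against 4 of 42 genes (median -0.43), beside 25.0% lower and 22.3% higher among all genes. With total counts 22 fell and 4 rose (median -0.73), beside 37.8% lower and 13.7% higher among all genes. Mcm6, a subunit of the replicative helicase (-1.73), and the mitotic motor gene Kif11 (-2.09) fell and the inhibitor gene Cdkn1a rose (1.78). Mki67, the proliferation marker, went the other way, from 13.6, 17.8 and 12.8 CPM in DMEM + Rux to 220.5, 199.9 and 220.3 CPM in CM + Rux (3.85 ± 0.19, adjusted p = 1.6e-09), with no overlap between the groups. In the integrated stress response 8 rose and 5 fell of 22 genes, with a median of 0.27, and the share that fell was near that of all genes. With total counts 5 rose and 6 fell with a median of -0.02. The cystine transporter gene Slc7a11 rose from 31.2 ± 9.56 CPM to 1037 ± 234 CPM (5.06), and the stress factor gene Atf3 fell (-1.33). Of 18 genes of the unfolded protein response 8 rose and 0 fell, among them Manf (1.39). Of 19 targets of the oxidant sensor NRF2 7 rose and 0 fell with a median of 0.15, and with total counts 6 rose and 4 fell with a median of -0.15. Without CM + Rux replicate 1 or DMEM + Rux replicate 2, 7 rose and 2 or 1 fell. Among them was a rise of Txnrd1, a thioredoxin reductase (1.55). Of 8 metallothionein and zinc transport genes 3 rose and 1 fell, and their median of 0.25 was -0.06 with total counts. Among them the zinc importer gene Slc39a14 (3.98) and Mt2 (2.63) rose and the zinc exporter gene Slc30a1 fell (-1.49). Of 41 ribosome biogenesis genes 11 were higher, a share near that of all genes, and 2 lower with a median of 0.26, and with total counts 3 were higher and 6 lower with a median of -0.05.

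The response in ruxolitinib was set beside the response without it, CM against DMEM, which shares no sample with it. Without the inhibitor 2584 genes (20.9%) were higher and 2980 (24.1%) lower. Over the 12372 genes, the log2 fold changes of both responses had a Pearson correlation of 0.944 and a Spearman correlation of 0.932, given as a description across genes, which are not independent replicates. Of the genes that rose in ruxolitinib 2233 also rose without it, which is 80.9% of the first list and 86.4% of the other, and 2599 fell in both, 83.9% and 87.2%. Opposite calls were made for 5 genes. The 95% interval of the difference between responses lay within 1 on the log2 scale for 9287 genes (75.1%), and for the other genes the interval reached past a 2-fold difference. With the replicate number as a block, the interval lay within 1 for 9903 genes (80.0%).

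**Figure D5:**
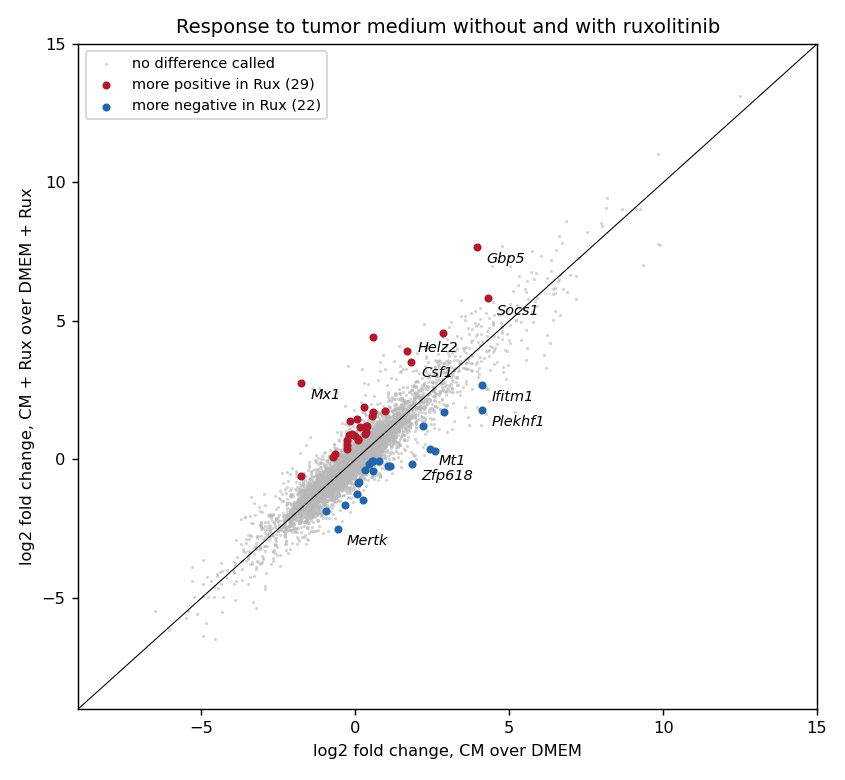
Each of 12248 points is a gene, with the log2 fold change of CM over DMEM on the x axis and of CM + Rux over DMEM + Rux on the y axis. Genes with a group at the counting limit are left out, the 29 genes with a more positive response in ruxolitinib are red and the 22 with a more negative one blue, and the cloud follows the line of equal response while Mx1 and Gbp5 lie above it and Mt1 and Mertk below it.

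The difference itself was tested as an interaction, and far fewer genes passed without the replicate number as a block than with it. Differences, intervals and adjusted p-values of single genes are from the fit without the block unless stated. That fit leaves out the pairing by number. The response was more positive in ruxolitinib for 29 genes (0.234%) and more negative for 22 (0.178%). With the replicate number as a block 444 genes differed (3.59%), 247 in the positive and 197 in the negative direction, and these held all 29 and all 22. Leaving out 1 sample at a time gave 9 to 84 and 5 to 34 genes, the fewest without CM replicate 1 and DMEM replicate 1 and the most without DMEM replicate 2 and CM + Rux replicate 2. Of the 29 genes, 25 were higher in the ruxolitinib response, and 8 had been lower in DMEM + Rux than in DMEM. Mx1 (ENSMUSG00000000386, chr16:97447035-97462907, GRCm38), an antiviral GTPase, had 24 and 39.9 CPM in the 2 DMEM samples, 5.62, 14.9 and 7.45 CPM in CM, 0.462, 0.603 and 0.712 CPM in DMEM + Rux and 5.02, 3.78 and 3.41 CPM in CM + Rux. Without the inhibitor the CM samples lay below the DMEM samples, in it they lay above the DMEM + Rux samples, and the difference was 4.51 ± 0.51 on the log2 scale (adjusted p = 0.0029). Gbp5 had 11.7 and 6.79 CPM in DMEM and 153, 136 and 144 CPM in CM, against the values with the inhibitor given above, and its responses differed by 3.72 ± 0.56 (adjusted p = 0.012). Among the 52 interferon targets listed, 7 rose and 15 fell in CM without ruxolitinib, with a median of -0.31, beside 20.9% higher and 24.1% lower among all genes. Of those listed, 4 had a more positive response in ruxolitinib, or 17 with the block, while 0 had a more negative one in either fit. The count depends on the list, since Ifitm1, given below, is not on it and had a more negative response in ruxolitinib. The comparison of DMEM + Rux with DMEM shares samples with both responses, so a lower starting level in DMEM + Rux enters the difference directly.

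Csf1, the growth factor of macrophages, had 4.99, 5.76 and 9.62 CPM in DMEM + Rux and 73.2, 82.8 and 77.5 CPM in CM + Rux, against 7.30 and 7.53 CPM in DMEM and 22, 22.6 and 32.5 CPM in CM, and the difference was 1.71 ± 0.34 (adjusted p = 0.046). It rose in both settings, by 3.51 in ruxolitinib and 1.80 without it on the log2 scale. Socs1, the feedback inhibitor of interferon signaling, differed by 1.5 ± 0.27 (adjusted p = 0.03) and Timd4 by 1.70 ± 0.34 (adjusted p = 0.047). The differences were 2.25 for Helz2, a helicase that coactivates nuclear receptors, and 1.40 for Ttc39c. For Csf1, Socs1 and Timd4 the difference lost its call in 10 of 19 alternative settings each, mostly those that left out 1 sample, for Ttc39c in 9 and for Helz2 in 5, while for Gbp5 it did so in 1 and for Mx1 in 0.

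Among the genes with a more negative response in ruxolitinib, Mt1, a metallothionein that binds zinc, had 49.4, 54 and 60.6 CPM in DMEM + Rux and 64.8, 82.7 and 66.9 CPM in CM + Rux, against 38.6 and 50.4 CPM in DMEM and 209, 316 and 188 CPM in CM. The groups with the inhibitor were close, the CM samples stood above DMEM, and the difference was -2.03 ± 0.26 (adjusted p = 0.0051). Mertk had 31, 26.8 and 32 CPM in DMEM + Rux and 4.72, 6.25 and 4.58 CPM in CM + Rux, against 23.5 and 27.3 CPM in DMEM and 12.9, 23.6 and 14.5 CPM in CM, a difference of -1.95 ± 0.36 (adjusted p = 0.033). Ifitm1, a membrane protein that restricts virus entry, rose in both settings but less in ruxolitinib, by 2.70 against 4.13 (difference -1.43 ± 0.22, adjusted p = 0.012). Pla2g15, a lysosomal phospholipase, had a response of -1.24 in ruxolitinib and 0.06 without it (difference -1.30 ± 0.13, adjusted p = 9.5e-04). The differences of the other named genes were -2.35 for Plekhf1, -2.01 for Zfp618, -1.72 for Olfm1 and -1.37 for Tnfrsf26. Mt1, Ifitm1 and Pla2g15 kept their call in all 19 settings, while Plekhf1 lost it in 9, Mertk in 8, Tnfrsf26 in 5, and Zfp618 and Olfm1 in 1 each.

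For leading cytokine and feedback genes the difference missed the threshold, and the intervals were wide. Il1a rose by 13.13 in ruxolitinib and 12.49 without it, with a difference of 0.63, 95% interval -2.14 to 3.41 (adjusted p = 0.99). Il1b rose by 6.75 and 5.86 (difference 0.89, 95% interval -0.19 to 1.97, adjusted p = 0.70), and Cxcl1 by 8.08 and 6.62 (difference 1.46, 95% interval 0.34 to 2.58, adjusted p = 0.31). Socs3 rose by 8.20 in ruxolitinib and 7.54 without it (difference 0.66, 95% interval -0.61 to 1.93, adjusted p = 0.91), and Cish by 7.74 and 9.90 (difference -2.15, 95% interval -4.27 to -0.04, adjusted p = 0.53). For Tnf the difference of 1.71 ± 0.51 missed the threshold without the block (adjusted p = 0.18) and passed it with the block (adjusted p = 0.035), and for Ccl22 the difference of 1.78 ± 0.72 did likewise (adjusted p = 0.44 and 0.039). Il6 was at 143, 346 and 168 CPM in the CM samples and at 0 and 0 CPM in DMEM, beside the values in ruxolitinib given above.

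The same CM + Rux samples stand beside 3 samples that also received 0.8 μM IKK-16, an inhibitor of IκB kinases, and 2 samples of CM + Rux labelled 2 h, so these levels are given side by side and the comparisons are not independent of the response above. Il6 averaged 314 ± 109 CPM in CM + Rux, 64.5 ± 41 CPM with IKK-16 and 42.9 ± 10.2 CPM (SD, n = 2) in the 2 h samples. Il1a averaged 2324 ± 715 CPM, 605 ± 368 CPM and 889.5 ± 89.3 CPM in the same order, and Nos2 76.9 ± 36.1 CPM, 14.6 ± 5.22 CPM and 30.1 ± 25.1 CPM. Ccl2 averaged 123 ± 90.4 CPM in CM + Rux and 258 ± 202 CPM with IKK-16, and Rasgrp3, the gene of steep fall, 2.13 ± 0.335 CPM and 2.45 ± 0.530 CPM against 155 ± 17.5 CPM in DMEM + Rux.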

How the data were processed

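RNA of BMDMs was sequenced by the authors from stranded mRNA libraries, trimmed with Trimmomatic 0.33, aligned to GRCm38 with HISAT2 2.1.0 and counted per gene with featureCounts 1.6.2, and the deposited table holds unscaled whole-number counts of 55487 genes. Symbols and positions came from the Ensembl annotation of that build, and 346 genes without a symbol were kept in the test but not named. Samples were grouped by the condition and number in their titles.

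The scaling (relative log expression, RLE), the filter (above 1 CPM in at least 2 samples, which kept 12372 genes) and the thresholds (Benjamini-Hochberg adjusted p under 0.05, log2 fold change beyond 0.5) follow the study's methods. Like the study, which called genes in edgeR and whose statistics section also names a t test, genes were tested in edgeR, here with the quasi-likelihood test of version 4.0.16 (limma 3.58.1, R 4.3.3), on 1 model of all 16 samples in 6 groups, so that all groups share the estimate of the spread. The contrasts were CM + Rux minus DMEM + Rux, CM minus DMEM, the difference of these, and DMEM + Rux minus DMEM. Reported CPM use RLE-scaled totals. Where a group had at most 3 counts in every sample, a fold was computed against 3 counts and given as a bound. The code was tested on simulated counts with known changes. Other steps used Python 3.11.15, pandas 2.3.3, numpy 2.4.6 and matplotlib 3.10.9.

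No pair of replicates was a copy: chi-square over degrees of freedom, between their counts, was 14.2 to 54.4. Deviations from the group mean correlated at 0.308, 0.172 and 0.235 between CM + Rux and DMEM + Rux samples of the same number. Between different numbers they correlated at -0.21 to -0.0409, which follows from centering on the group mean and adds no evidence. On the positive values alone the numbers were taken to pair the samples, and a fit with the number as a block was run.

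The comparisons, the gene lists and the members named were chosen with earlier results of these data known. The rule names the 12 largest rises and 12 largest falls among called genes that averaged 5 CPM or more and did not overlap, the 8 largest differences in each direction, the 3 largest called changes of each list in each direction, and Csf2, Has1, Ccl22 and Tnf. The values of some genes that the rule names are not reported here. Further genes of a list were named after their values were seen. Lists are described by counts and medians, with no test of a list. Alternatives were TMM scaling, other filters, DESeq2 1.42.0, the likelihood ratio test, other thresholds, fewer samples, the block and each sample left out, and scaling by total counts and an unadjusted p were added after seeing the data. Promoter windows are RefSeq's. Of the genes tested 74.4% had a window, under the 80% needed, so motif shares were not compared between higher and lower genes.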

Additional observations from a re-analysis of the deposited data

Results flagged for a closer look

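The response to CM differed with and without ruxolitinib for 29 genes in the positive and 22 in the negative direction. These come from the interaction test of edgeR with Benjamini-Hochberg adjustment and without the replicate block. With the block the counts were 247 and 197. Among named genes and members of the gene lists, the response in ruxolitinib minus that without it was, on the log2 scale, 4.513 for Mx1, 3.722 for Gbp5, 2.254 for Helz2, 1.715 for Csf1, 1.697 for Timd4, 1.499 for Socs1 and 1.400 for Ttc39c. Smaller positive differences were 1.043 for Pim2, a survival kinase, 1.031 for Parp14, an ADP-ribosyltransferase induced by interferon, 0.845 for Ticam2, an adaptor of TLR4, and 0.634 for Ifi35. Negative differences were -2.345 for Plekhf1, -2.031 for Mt1, -2.012 for Zfp618, -1.950 for Mertk, -1.724 for Olfm1, -1.429 for Ifitm1, -1.366 for Tnfrsf26 and -1.299 for Pla2g15. Smaller ones were -1.173 for Pdgfa, a platelet-derived growth factor, -0.971 for Irf8, a lineage factor of macrophages, and -0.944 for Tlr4, the receptor of lipopolysaccharide.

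Tlr4 had 228, 224 and 174 CPM in DMEM + Rux and 127, 117 and 105 CPM in CM + Rux, and 215 and 231 CPM in DMEM and 267, 234 and 215 CPM in CM. Irf8 had 204, 197 and 204 CPM and 137, 143 and 174 CPM in ruxolitinib and 187 and 195 CPM and 267, 297 and 282 CPM without it. For both, the CM + Rux samples lay below the DMEM + Rux samples.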

How the results depend on the processing

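The counts of the response in ruxolitinib, 2761 higher and 3096 lower, stayed within 1.5 times under 17 of 19 alternatives each. They became 1388 and 1661 with a log2 fold change beyond 1, and 1699 and 4674 with scaling by total counts. Leaving out 1 sample gave 2606 to 2775 higher and 2959 to 3063 lower. The log2 fold changes of the 12 largest rises and 12 largest falls kept their direction and call under every alternative. Over all lists and settings together, 505 of 544 list medians moved by less than the SD of that median over the 3 CM + Rux samples. Scaling by total counts alone lowered list medians by close to 0.30, which was beyond that SD for most lists. The counts of genes whose response differed, 29 and 22, depended on the setting. They were 213 and 136 with no filter on low counts, 247 and 197 with the replicate block, 149 and 88 with DESeq2, 150 and 92 with the likelihood ratio test, 16 and 13 with a log2 fold change beyond 1, 49 and 41 with scaling by total counts, and 433 and 309 at an unadjusted p under 0.05. Leaving out 1 sample gave 9 to 84 and 5 to 34. The positive count was 9 with CM replicate 1 left out, 11 and 14 without CM + Rux replicates 1 and 3, 12 and 84 without DMEM replicates 1 and 2, and 13, 19 and 12 without DMEM + Rux replicates 1, 2 and 3. The negative count was 10 and 9 without CM replicates 1 and 2, 8, 34 and 9 without CM + Rux replicates 1, 2 and 3, 5 without DMEM replicate 1, and 11, 14 and 10 without DMEM + Rux replicates 1, 2 and 3. With DMEM replicate 1 or 2 left out the lone DMEM sample was assumed to vary like the other groups. The cause of these changes was not tested. The replicate block moved neither count of the response in ruxolitinib by over 1.5 times and changed no call of the genes named for that response. With 3 samples a group and 2 of DMEM, the median standard error was 0.13 for the response and 0.19 for the difference. With the replicate block that of the difference was 0.14. Differences that are small against these errors were not detectable.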

Other observations

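Opposite calls in CM with and without ruxolitinib were made for 5 genes, named here after their values were seen. Mx1, Ifit1 and Ifit1bl2, a neighbour of Ifit1 whose reads may be shared with it, were lower in CM than in DMEM and higher in CM + Rux than in DMEM + Rux. Ifit1 had 40.3 and 63.4 CPM in DMEM, 8.90, 32.1 and 17.1 CPM in CM, 1.15, 1.05 and 1.13 CPM in DMEM + Rux and 3.56, 12.5 and 3.10 CPM in CM + Rux, and its responses were -1.40 and 2.57 on the log2 scale. Gpr146, an orphan receptor gene, and Gm7367 went the other way. Gpr146 had 54.5 and 56.6 CPM in DMEM, 83.2, 106 and 86.5 CPM in CM, 68.9, 57.7 and 58.9 CPM in DMEM + Rux and 29, 45.5 and 35.8 CPM in CM + Rux, and its responses were 0.73 and -0.75.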
